A study of Mus musculus with 51 samples.

Results

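Meis1, Pbx2, Pbx3 and Pknox1 encode TALE homeodomain transcription factors, which bind DNA together with Hox proteins. They were followed across blood-forming cells sorted from wild type mice and from mice that carry an Mll-AF9 knock-in. The members were all probe sets that the platform annotation assigns to 1 of these 4 genes. There were 11 such probe sets among 34945 with 1 gene, or 4 of 18193 genes: 3 for Meis1, 3 for Pbx2, 2 for Pbx3 and 3 for Pknox1. Each probe set was kept apart, and the brightest of a gene over all replicates is called its main probe set. A probe set whose name ends in _a_at may match alternative transcripts of a gene, and one ending in _s_at may also match transcripts of other genes.

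Hox proteins alone recognise short and poorly distinct DNA sequences, and partners of the TALE class raise their affinity and selectivity. Pbx proteins bind DNA beside a Hox protein, whereas Meis and Pknox proteins join Pbx, hold it in the nucleus and can contact DNA themselves. In bone marrow Meis1 is a gene of stem and early progenitor cells that is silenced as myeloid cells mature. Meis1, together with Hoxa9, is a well known partner of MLL fusion proteins in leukaemia, and Pbx3 has been described as a further cofactor in that setting.

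The study asked which genes differ between Mll-AF9 cells and wild type cells of the same kind. Mll-AF9 joins the gene of the histone methyltransferase Mll (Kmt2a) to Af9 (Mllt3), and in a knock-in it is placed at the endogenous locus. The populations, sorted by flow cytometry from bone marrow, were haematopoietic stem cells (HSC), common lymphoid progenitors (CLP), common myeloid progenitors (CMP) and granulocyte-macrophage progenitors (GMP). Wild type groups held 5 HSC, 8 CLP, 5 CMP and 5 GMP replicates, and Mll-AF9 groups held 5 HSC, 7 CLP, 4 CMP and 4 GMP replicates. The labels state no strain, age, sex or zygosity and no surface markers of the sort. They also leave unsaid whether each replicate is a mouse of its own, so the p-values describe the scatter of these samples, some of which can be technical.

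The data were 51 Affymetrix arrays, of which repeat runs were averaged for 8 CMP replicates, leaving 43 replicates. Values are log2 of RMA intensities, genotype differences are given on that scale with wild type subtracted, and a level under 4.62 counts as background. Between 46.7% and 50.7% of probe sets lay above it in each replicate. For 8 CLP replicates (1 wild type, all 7 Mll-AF9) another label, the source name, reads CMP; groups here go by titles. Il7r, the interleukin-7 receptor that defines CLP, averaged 9.54 ± 1.23 (SD, n = 8) among wild type CLP and 9.49 ± 1.36 (SD, n = 7) in Mll-AF9 CLP. Klf1, a regulator of red cell genes, had a mean of 11.38 ± 0.22 (SD, n = 5) for wild type CMP but 7.79 ± 1.08 (SD, n = 7) for Mll-AF9 CLP. The stem cell gene Hlf was high in wild type CLP, at 9.31, as well as in wild type HSC, at 10.07. Mll-AF9 replicates all had Y-linked genes (mean of Kdm5d, Eif2s3y and Uty) below background, from 2.21 to 2.72. Among wild type replicates this mean exceeded 6 in 2 of 5 HSC, 6 of 8 CLP, 3 of 5 CMP and 3 of 5 GMP. Kmt2a itself differed by -0.50 in HSC, -0.56 in CLP, -0.55 in CMP and -0.45 in GMP and was not called, and where its probe set lies relative to the fusion point was not examined.

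Meis1 was higher in Mll-AF9 GMP and CMP than in their wild type counterparts, and Pbx3 was lower in Mll-AF9 CMP and CLP. No probe set of Pbx2 or Pknox1 was called in any of the 4 populations. Calls required a limma p, adjusted by Benjamini-Hochberg over all 34945 probe sets, under 0.05. In GMP 2 of the 11 were called, where 0.155% of all probe sets were, in CMP 2 of 11 against 0.229%, and in CLP 1 of 11 against 0.246%. In HSC 0 of 11 were called by limma against 0.0114% of all, while 2 of 11 had an unadjusted p below 0.05 against 6.06% of all. Because the arrays measure bulk RNA, fewer cells of a type and less RNA per cell cannot be told apart.

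**Figure D1:**
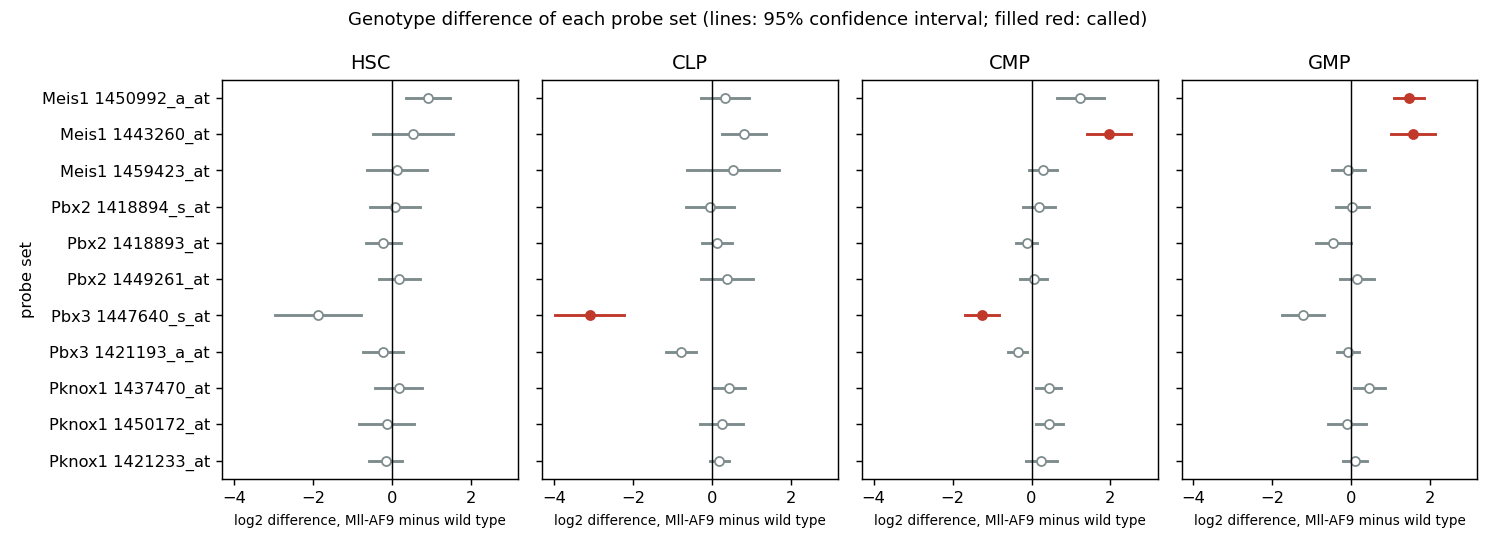
Log2 difference between Mll-AF9 and wild type (x axis) for each of the 11 probe sets (y axis) in 4 populations, with 95% confidence intervals and filled red points where limma called the difference. The called points are Meis1 to the right of 0 in GMP and CMP, and Pbx3 1447640_s_at to the left of 0 in CMP and CLP, where it reaches -3.10.

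Meis1, the homeobox gene that cooperates with Hoxa9, followed the order HSC, CLP, CMP, GMP in wild type cells on its main probe set 1450992_a_at. Its mean level was 9.81 ± 0.45 (SD, n = 5) in HSC, 9.56 ± 0.69 (SD, n = 8) in CLP, 8.03 ± 0.59 (SD, n = 5) in CMP and 6.66 ± 0.18 (SD, n = 5) in GMP. HSC and CLP were 0.25 ± 0.28 (SE) apart, which was not called (limma adjusted p = 0.854), and 0.226% of all probe sets were called for this pair. The step from CLP down to CMP was 1.53 ± 0.28 (SE, adjusted p = 5.65e-05) and that from CMP to GMP 1.37 ± 0.31 (SE, adjusted p = 0.000741), in a model of all 8 groups. Between these wild type populations 20.2% and 28.5% of all probe sets were called, and pairs with CMP also rest on arrays whose processing may have been separate. GMP lay 3.15 ± 0.31 (SE, adjusted p = 1.32e-10) below HSC, where 35% of all probe sets were called, and CMP 1.78 ± 0.31 (SE, adjusted p = 3.32e-05) below HSC, where 19.2% were. The other Meis1 probe sets did not show the step from CMP to GMP. Wild type GMP minus CMP was 0.18 (limma adjusted p = 0.777) on 1443260_at and -0.09 (adjusted p = 0.921) on 1459423_at. Of the 11 probe sets, 4 were called between wild type GMP and HSC, 3 between CMP and HSC and 0 between CLP and HSC, where 1 of 11 had an unadjusted p below 0.05 against 9.78% of all.

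In GMP the wild type replicates of Meis1 read 6.84, 6.65, 6.44, 6.83 and 6.55 on the main probe set, and the Mll-AF9 replicates 7.90, 8.07, 8.03 and 8.49. All Mll-AF9 values lay above all wild type values, and 3.64% of all probe sets had groups that did not overlap in GMP. The difference was 1.46 ± 0.18 (SE, limma adjusted p = 0.00303), 2.76-fold, and ranked 6 by p among 34945 probe sets. It stayed called when any of the 9 replicates was left out, but not in 1 model of all 8 groups (adjusted p = 0.0646).

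The probe set 1443260_at read lower and in GMP and CMP gave Meis1 differences of similar or larger size. Wild type GMP stood at 5.99, 4.52, 4.71, 5.27 and 4.86, and Mll-AF9 GMP at 6.45, 6.50, 7.02 and 6.52. The groups did not overlap, and the difference was 1.56 ± 0.26 (SE, limma adjusted p = 0.0243). This call was lost without any 1 of 8 of the 9 replicates, all but wild type GMP 1, with differences of 1.42 to 1.61 and adjusted p from 0.0566 to 0.117. It was also lost with values floored at background (adjusted p = 0.0979) and in 1 model of all groups (0.234).

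In CMP the main Meis1 probe set read 8.22, 8.86, 7.67, 7.29 and 8.13 in wild type and 9.32, 9.04, 9.86 and 8.87 in Mll-AF9 replicates. The groups did not overlap, which held for 2.38% of all probe sets in CMP, although wild type CMP 2 came close to the lowest Mll-AF9 value. The difference of 1.24 ± 0.28 (SE) was not called (limma adjusted p = 0.131), nor was it in 21 of 23 alternative settings (adjusted p up to 0.475). It was called at 1.44 (adjusted p = 0.0393) without wild type CMP 2. With every run entered and the replicate as a random effect it was called at 1.25 (adjusted p = 0.00667). That fit called 186 of all probe sets, against 80 with the runs averaged. On 1443260_at wild type CMP read 4.70, 5.14, 5.87, 4.27 and 4.48, near background, and Mll-AF9 CMP read 6.79, 6.86, 7.05 and 6.75. There the difference was 1.97 ± 0.26 (SE, adjusted p = 0.00519), 3.92-fold. It stayed called when any of the 9 replicates was left out, but not in 1 model of all groups (adjusted p = 0.0523).

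In CLP and HSC Meis1 started from a high level and no difference was called. Wild type CLP ranged from 8.51 to 10.17 with a median of 9.87 on the main probe set, and Mll-AF9 CLP from 8.70 to 10.46 with a median of 10.09. The groups overlapped almost entirely, with a difference of 0.33 ± 0.29 (SE, limma adjusted p = 0.760, 95% interval -0.28 to 0.94). HSC read 9.85, 9.18, 10.10, 10.34 and 9.59 in wild type and 10.86, 10.41, 10.96, 11.32 and 10.04 in Mll-AF9. In HSC 4 of 5 Mll-AF9 values exceeded every wild type value, and the difference of 0.90 ± 0.26 (SE) had an adjusted p of 0.543 and a 95% interval from 0.34 to 1.47. On 1443260_at the differences were 0.81 ± 0.26 (SE, adjusted p = 0.374) in CLP and 0.54 ± 0.48 (SE, adjusted p = 0.887) in HSC.

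The third Meis1 probe set, 1459423_at, did not share the difference in GMP. Its levels were 4.79 ± 0.36 (SD, n = 5) in wild type and 4.71 ± 0.26 (SD, n = 4) in Mll-AF9 GMP, close to background, with a difference of -0.07. Its differences in CMP, CLP and HSC were 0.29, 0.53 and 0.12, none of them called. It did show the high level of Meis1 in stem cells, at 6.99 in wild type HSC against 4.87 in wild type CMP, a called difference.

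**Figure D2:**
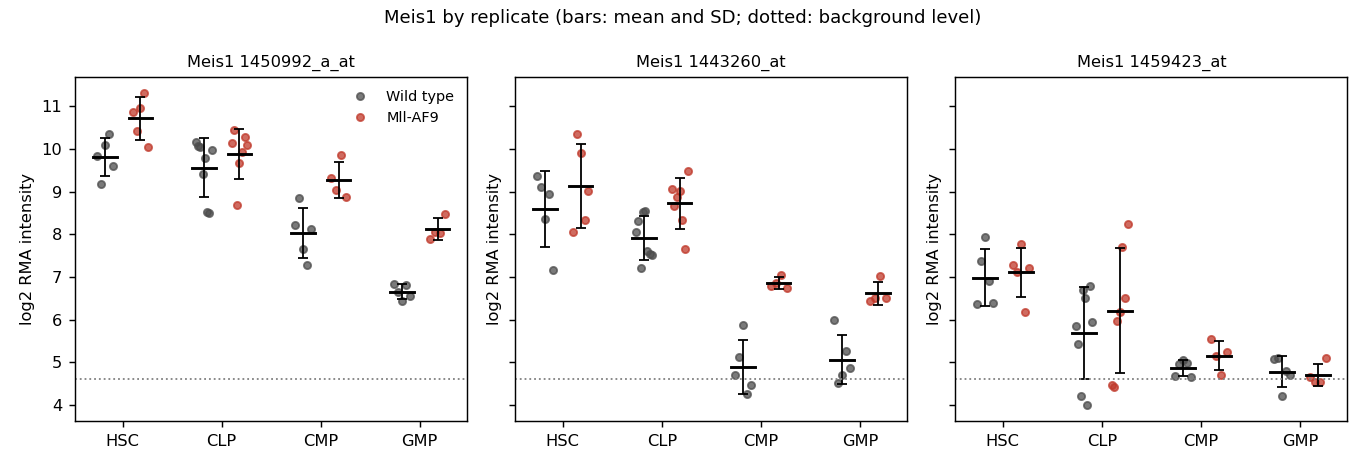
Log2 RMA intensity (y axis) of the Meis1 probe sets in each replicate of the 4 populations, wild type in grey and Mll-AF9 in red, with group mean and SD and the background level of 4.62 as a dotted line. On 1450992_a_at both genotypes descend from HSC to GMP, and the Mll-AF9 GMP points, 7.90 to 8.49, all lie above the wild type points, 6.44 to 6.84.

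The order of the Meis1 main probe set in Mll-AF9 cells was again HSC, CLP, CMP, GMP, at 10.72, 9.89, 9.27 and 8.12. Here HSC and CLP differed by 0.82 ± 0.29 (SE, limma adjusted p = 0.107), with 2.97% of all probe sets called, and CLP and CMP by 0.62 ± 0.31 (SE, adjusted p = 0.192), neither called. CMP exceeded GMP by 1.15 ± 0.35 (SE, adjusted p = 0.0147), where 19.7% of all probe sets were called, and without Mll-AF9 CMP 3 that call was lost at 0.96 (adjusted p = 0.0750). The pair of HSC and CLP was called at 0.99 (adjusted p = 0.0433) without Mll-AF9 HSC 5. Against HSC, Mll-AF9 GMP read 2.60 ± 0.33 (SE, adjusted p = 5.44e-08) lower and Mll-AF9 CMP 1.44 ± 0.33 (SE, adjusted p = 0.00129) lower, where 30.4% and 17.2% of all probe sets were called. Against CLP, Mll-AF9 GMP read 1.77 ± 0.31 (SE, adjusted p = 2.31e-05) lower, where 27.4% were called. On the other Meis1 probe sets Mll-AF9 CMP and GMP did not differ by the test. CMP exceeded GMP by 0.24 (limma adjusted p = 0.762) on 1443260_at and by 0.45 (adjusted p = 0.638) on 1459423_at. Of the 11 probe sets, 4 were called between Mll-AF9 GMP and HSC, 4 between GMP and CLP, 3 between CMP and HSC and 0 between CLP and HSC, where 3 of 11 had an unadjusted p below 0.05 against 18% of all.

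Mll-AF9 GMP were set beside earlier wild type populations in contrasts added after the data had been seen. On the main probe set Meis1 in Mll-AF9 GMP differed from wild type CMP by 0.09 ± 0.33 (SE, 95% interval -0.58 to 0.76, limma adjusted p = 0.885), where 22.9% of probe sets were called. It was 1.69 ± 0.33 (SE, adjusted p = 0.000116) lower than in wild type HSC, where 28.6% of all probe sets were called. On 1443260_at Mll-AF9 GMP exceeded wild type CMP by 1.73 ± 0.41 (SE, adjusted p = 0.00123), so the probe sets differ on how these groups compare.

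Pbx3, a PBC-class partner of Hox and Meis proteins, read lower in Mll-AF9 cells of every population on its main probe set 1447640_s_at, and this was called in CMP and CLP. In wild type cells its level was 6.94 ± 0.80 (SD, n = 8) in CLP, 6.63 ± 0.11 (SD, n = 5) in CMP, 6.22 ± 0.69 (SD, n = 5) in HSC and 5.40 ± 0.42 (SD, n = 5) in GMP. No neighbours in this order differed by limma's test. GMP lay below CMP by 1.23 ± 0.47 (SE, adjusted p = 0.0430) and below CLP by 1.54 ± 0.42 (SE, adjusted p = 0.00309), where 28.5% and 39.8% of all probe sets were called. The call against CMP was lost without any 1 of wild type GMP 2 to 5 or wild type CMP 1 to 5 (adjusted p from 0.0612 to 0.0976). It was also lost after quantile normalisation (0.0696), with the 3' minus 5' covariate (0.0627) and with the second CMP run alone (0.0564).

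In CLP the wild type replicates of Pbx3 ranged from 5.74 to 8.16 with a median of 6.89, and the Mll-AF9 replicates from 2.09 to 5.09 with a median of 3.61. The ranges did not overlap, which held for 0.195% of all probe sets in CLP. Of the Mll-AF9 replicates, 2 of 7 lay above background, against 8 of 8 wild type. The difference was -3.10 ± 0.42 (SE, limma adjusted p = 0.00163), ranked 11 by p. Since the Mll-AF9 mean of 3.85 lies below background, the fold is given as a bound: with Mll-AF9 replicates raised to the background level, Pbx3 was at least 4.58-fold lower. It stayed called when any of the 15 replicates was left out.

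In CMP Pbx3 read 6.61, 6.52, 6.80, 6.58 and 6.63 in wild type and 5.06, 6.07, 4.92 and 5.45 in Mll-AF9 replicates. The wild type values were tightly grouped, and all 4 Mll-AF9 values lay below them, while 2.38% of all probe sets in CMP had groups without overlap. The difference was -1.25 ± 0.20 (SE, limma adjusted p = 0.0160), 2.38-fold lower. The call was lost without wild type CMP 3 (adjusted p = 0.0597), wild type CMP 5 (0.0532), Mll-AF9 CMP 1 (0.0682) or Mll-AF9 CMP 4 (0.0533), with differences of -1.15 to -1.28. With the second run alone the difference was -1.16 and not called (adjusted p = 0.471), nor was it called with values floored at background (0.0737) or in 1 model of all groups (1.000). Between the runs of a CMP replicate the Pbx3 value moved by -0.92 to 1.05.

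In GMP Pbx3 read 6.03, 4.90, 5.40, 5.48 and 5.20 in wild type and 3.83, 3.87, 4.08 and 4.90 in Mll-AF9. The lowest wild type and the highest Mll-AF9 value coincided at 4.90, and 3 of 4 Mll-AF9 values were below background. The difference of -1.23 ± 0.25 (SE) was not called (limma adjusted p = 0.0808). It was called without wild type GMP 1 (-1.07, adjusted p = 0.0433) or without Mll-AF9 GMP 4 (-1.47, adjusted p = 0.0280). The Mll-AF9 mean of 4.17 lies below background, and with values floored there the difference was -0.71 (adjusted p = 0.258).

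In HSC Pbx3 read 5.45, 5.48, 6.82, 6.63 and 6.72 in wild type and 4.23, 5.44, 4.38, 5.34 and 2.30 in Mll-AF9. The groups did not overlap, which held for 1.2% of all probe sets in HSC, though the highest Mll-AF9 and the lowest wild type value lay next to each other. The difference was -1.88 ± 0.51 (SE, 95% interval -2.98 to -0.78, limma adjusted p = 0.491). The Mll-AF9 mean of 4.34 and 3 of 5 Mll-AF9 values lie below background, and with values floored there the difference was -1.29 (adjusted p = 0.599).

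**Figure D3:**
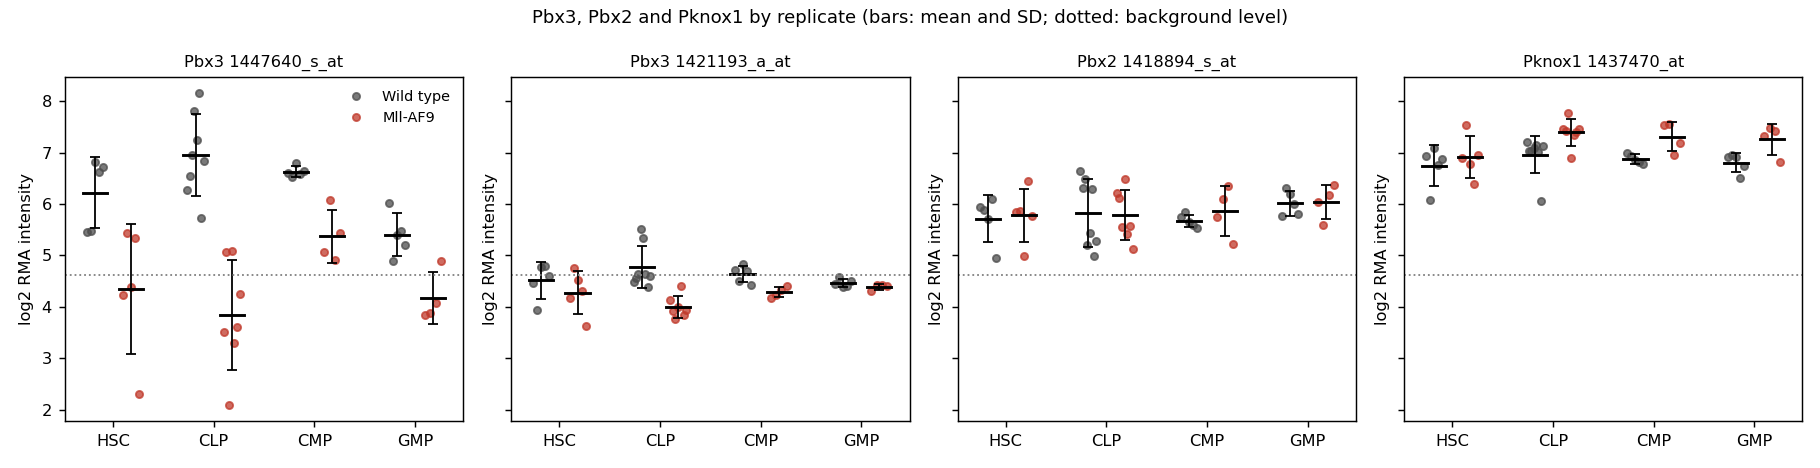
Log2 RMA intensity (y axis) of both Pbx3 probe sets and of the main probe sets of Pbx2 and Pknox1 in each replicate of the 4 populations, wild type in grey and Mll-AF9 in red, with group mean and SD and the background level of 4.62 as a dotted line. Pbx3 1447640_s_at falls to a mean of 3.85 in Mll-AF9 CLP against 6.94 in wild type CLP, whereas Pbx2 and Pknox1 stay within about the same range in all groups.

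The other Pbx3 probe set, 1421193_a_at, lay above background in 10 of 43 replicates. Its differences were -0.78 ± 0.18 (SE, limma adjusted p = 0.123) in CLP, -0.35 ± 0.11 (SE, adjusted p = 0.477) in CMP, -0.23 in HSC and -0.07 in GMP. In CMP its groups did not overlap, from 4.43 to 4.83 in wild type and 4.18 to 4.40 in Mll-AF9, as held for 2.38% of all probe sets. Only 3 of 5 wild type and 0 of 4 Mll-AF9 values there lay above background. Over the 43 replicates it correlated with the main Pbx3 probe set at r = 0.74, with all groups pooled and the arrays shared.

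In Mll-AF9 cells the Pbx3 order was CMP, HSC, GMP, CLP, but the means of HSC, GMP and CLP, 4.34, 4.17 and 3.85, lie below background and have no order among themselves. CMP, at 5.37, exceeded CLP by 1.53 ± 0.46 (SE, limma adjusted p = 0.0165), where 16.4% of all probe sets were called, and no neighbours in that order differed by the test. With values floored at background that difference was 0.62 and not called (adjusted p = 0.166), and the call was also lost with the 3' minus 5' covariate (0.0873) or without Mll-AF9 CMP 2 (0.0872). The genotype difference of Pbx3 in GMP was less negative than that in CLP by 1.87 ± 0.62 (SE, adjusted p = 0.360), where 0.0601% of probe sets were called, and that in CMP less negative than that in CLP by 1.85 ± 0.62 (SE, adjusted p = 0.948), where 0.0515% were. For Meis1 the difference in GMP exceeded that in CLP by 1.13 ± 0.42 (SE, adjusted p = 0.429). Over the 6 pairs of populations limma called 0 of the 11 probe sets in this test, where 0.126% of all probe sets were called for CLP against HSC, 0.00858% for GMP against HSC and 0 for GMP or HSC against CMP. At an unadjusted p below 0.05 there were up to 4 of 11, for GMP against CLP, where 8.94% of all probe sets reached it. A dependence of the genotype difference on the population was not shown for any of these genes.

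Both Pbx3 and the level of Y-linked genes were lower in Mll-AF9 groups. Within wild type cells Pbx3 averaged 7.32 in the 2 CLP replicates with low Y-linked genes and 6.82 in the 6 with high ones. The means were 6.60 and 6.64 in CMP, 5.34 and 5.44 in GMP, and 6.72 and 5.46 in HSC. These means rest on 2 or 3 low replicates per population. No Mll-AF9 replicate had high Y-linked genes, so whether Pbx3 varies with them in Mll-AF9 cells cannot be seen. The genotypes can be compared at a like level only among replicates with low Y-linked genes. In CLP the difference was -3.39 ± 0.65 (SE, limma adjusted p = 0.357) with the Y-linked mean as a covariate, a fit that called 0 of all probe sets, and -3.48 (adjusted p = 0.427) against the 2 low wild type replicates alone. In CMP it was -1.23 with the covariate (adjusted p = 0.167) and -1.23 against the low wild type replicates (adjusted p = 0.354). With either setting both Pbx3 calls were lost. Over all probe sets in CMP, 24 were called with the covariate and 17 against the low wild type replicates, where 80 were called without either setting. In CLP 1 was called against the low wild type replicates, where 86 were called without either setting.

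**Figure D4:**
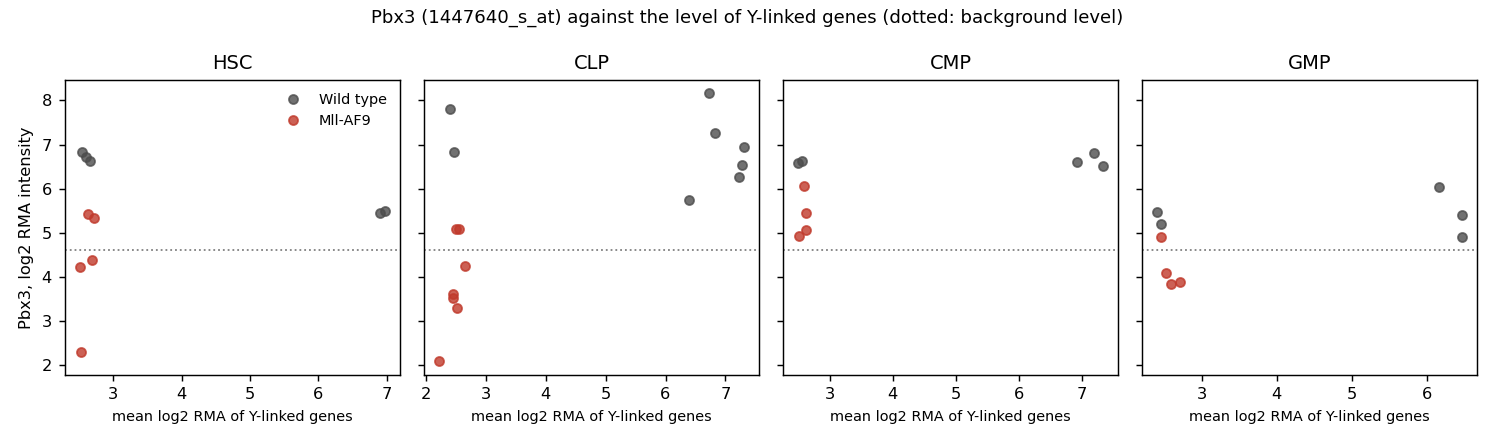
Pbx3 on probe set 1447640_s_at (y axis, log2 RMA intensity) against the mean log2 RMA intensity of Kdm5d, Eif2s3y and Uty (x axis) for each replicate of the 4 populations, wild type in grey and Mll-AF9 in red, with the background level dotted. At the low end of the x axis, wild type CLP replicates at 6.83 and 7.82 lie above all 7 Mll-AF9 replicates, whose highest value is 5.09.

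For Meis1 the main probe set in GMP differed by 1.42 (limma adjusted p = 0.0419) with the Y-linked covariate and by 1.44 (adjusted p = 0.00442) against low wild type replicates alone. On 1443260_at in CMP the values were 2.49 (adjusted p = 0.00126) and 2.49 (adjusted p = 0.000647). The GMP difference on 1443260_at was 1.52 with the covariate and not called (adjusted p = 0.192), and 1.56 against the low replicates (adjusted p = 0.00523).

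Pbx2, a broadly expressed PBC-class gene, was above background in all 43 replicates on 1418894_s_at and 1418893_at. The main probe set 1418894_s_at had group means from 5.67 in wild type CMP to 6.04 in Mll-AF9 GMP. Its genotype differences were 0.06 in HSC, -0.05 in CLP, 0.19 in CMP and 0.03 in GMP, and the 95% interval in GMP ran from -0.39 to 0.45. The probe set 1449261_at differed by 0.06 to 0.38, and none was called. In CMP the second run read higher than the first on 1418894_s_at in 8 of 8 replicates, by 0.04 to 1.37.

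On 1418893_at Pbx2 ran against Meis1 across populations, highest in GMP. Wild type GMP stood at 6.43 ± 0.31 (SD, n = 5), against 5.79 in CMP, 5.66 in CLP and 5.48 in HSC. GMP exceeded CMP by 0.64 ± 0.18 (SE, limma adjusted p = 0.00549), and the lower neighbours did not differ by the test. In Mll-AF9 GMP the level was 5.97 ± 0.34 (SD, n = 4), a genotype difference of -0.46 ± 0.21 (SE, adjusted p = 0.574). Over all 43 replicates this probe set and the main Meis1 probe set correlated at r = -0.68, pooled over the groups. On the main Pbx2 probe set wild type GMP was also highest, at 6.01, followed by CLP, HSC and CMP. No neighbours in that order differed by the test. On 1449261_at GMP was instead lowest in both genotypes, at 4.78 in wild type and 4.92 in Mll-AF9, and no neighbours differed by the test. Over the 43 replicates the main Meis1 probe set correlated with the main Pbx2 probe set at r = -0.02 and with 1449261_at at 0.25. The opposite course to Meis1 was thus not shared by all Pbx2 probe sets.

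Pknox1, also called Prep1, is a Meis relative that competes for Pbx partners. Its main probe set 1437470_at read nearly level across wild type populations, from 6.74 ± 0.39 (SD, n = 5) in HSC to 6.96 ± 0.37 (SD, n = 8) in CLP. Mll-AF9 means were above the wild type means in all 4 populations, by 0.16 ± 0.27 (SE) in HSC, 0.43 ± 0.19 in CLP, 0.43 ± 0.14 in CMP and 0.46 ± 0.19 in GMP. The limma adjusted p-values were 0.951, 0.556, 0.502 and 0.515, and the groups overlapped in every population. In GMP wild type values ranged from 6.50 to 6.94 and Mll-AF9 values from 6.82 to 7.48.

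The other Pknox1 probe sets were dim. The probe set 1450172_at lay above background in 28 of 43 replicates and differed by -0.11, 0.45, 0.25 and -0.13 in GMP, CMP, CLP and HSC, none called. It read lower in GMP, where both group means lie below background. Wild type GMP minus CMP was -0.83 (limma adjusted p = 0.0311) and GMP minus CLP -0.70 (adjusted p = 0.0323). For these pairs 28.5% and 39.8% of all probe sets were called. Mll-AF9 GMP minus CMP was -1.38 (adjusted p = 0.00173), where 19.7% were called. Both wild type calls were lost with values floored at background (adjusted p = 0.195 and 0.0563) and without wild type GMP 4 or 5. The probe set 1421233_at was above background in 0 of 43 replicates and gives no level of the gene. Correlations among the Pknox1 probe sets over the 43 replicates were at most 0.31, against 0.81 between 1450992_a_at and 1443260_at of Meis1.

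Among the 10919 genes compared, those whose 8 group means followed a member most closely were named. For Meis1 these were Fam160b2 (r = 0.983), Rab10os (0.983), Angpt1 (0.980), Csnk1a1 (0.975) and Phc3 (0.973). Over the 43 replicates Angpt1, the angiopoietin ligand of the Tek receptor, had the highest value of the 5, at r = 0.937. For Pbx3 they were Tmem88 (0.925), Eif2s3y (0.895), Kdm5d (0.892), Tex9 (0.866) and Acod1 (0.858), of which Eif2s3y and Kdm5d are Y-linked. For Pknox1 they were Smpdl3a (0.952), Cdk5rap1 (0.909), Ly6k (0.884), Dnah8 (0.848) and Dcp1a (0.837). For Pbx2 they were Fscn1 (0.985), Fsd1 (0.970), Tmem213 (0.957), Opn4 (0.954) and Wnt4 (0.952), but over the 43 replicates their r lay between -0.22 and 0.11. All these values share the same arrays and, for the group means, rest on 8 points.

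The other TALE genes measured, Meis2, Meis3, Pbx4, Pknox2, Tgif1 and Tgif2, had 0 of 6 main probe sets called by limma in each population, and 3 of 6 had a group mean above background. Their median difference was 0.00 in HSC, 0.10 in CLP, -0.03 in CMP and -0.04 in GMP, beside 0.01, 0.06, 0.00 and -0.02 over all genes. The largest shift in GMP was that of Tgif2, a corepressor of the Smad pathway, at -0.59 ± 0.20 (SE, adjusted p = 0.393). A dim secondary probe set of Meis2, 1417129_a_at, was called in CLP at -0.50 (adjusted p = 0.0163), with both groups below background.

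Among the Hox partners, 18 of 21 listed HoxA and HoxB genes were measured and 8 had a group mean above background. On main probe sets 1 of 18 was called in GMP, Hoxa9, which was 1.79 ± 0.24 (SE, limma adjusted p = 0.00442) higher. A dimmer Hoxa5 probe set, 1448926_at, was also called in GMP, at 2.31 (adjusted p = 0.000295). In CMP 5 of 18 main probe sets were called, all higher: Hoxa9 by 2.41, Hoxa10 by 2.22, Hoxa5 by 1.42, Hoxa2 by 1.11 and Hoxa7 by 0.76. The Hoxa2 means lie below background in both genotypes, and the wild type mean of Hoxa10 does. In CLP 1 of 18 main probe sets was called, that of Hoxa5, by 1.57, and in HSC 0 of 18 were. Secondary probe sets were called in CLP for Hoxa5, 1448926_at at 1.83, and for Hoxa3, 1429398_at at 1.03 (adjusted p = 0.0389) with both groups below background. The median over the list was 0.11 in HSC, 0.10 in CLP, 0.13 in CMP and 0.03 in GMP. In the comparison where most HoxA genes were higher, CMP, Meis1 was called on 1443260_at and Pbx3 was lower.

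Of 20 genes reported elsewhere as targets of Meis1 or of Hoxa9 with Meis1, limma called 0 in any population. The medians were -0.02 in HSC, 0.15 in CLP, 0.05 in CMP and 0.13 in GMP. Flt3, the receptor kinase often named as a Meis1 target, differed by -0.67 ± 0.21 (SE, adjusted p = 0.351) in GMP and by -0.94 ± 0.36 (SE, adjusted p = 0.489) in CLP. Hlf, a stem cell transcription factor, differed by 0.33 in GMP and by 0.79 ± 0.22 (SE, adjusted p = 0.298) in CMP. Of the 12 genes of the MLL fusion complex 0 were called in any population, with medians of -0.10, -0.05, 0.04 and -0.06 in GMP, CMP, CLP and HSC.

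**Figure D5:**
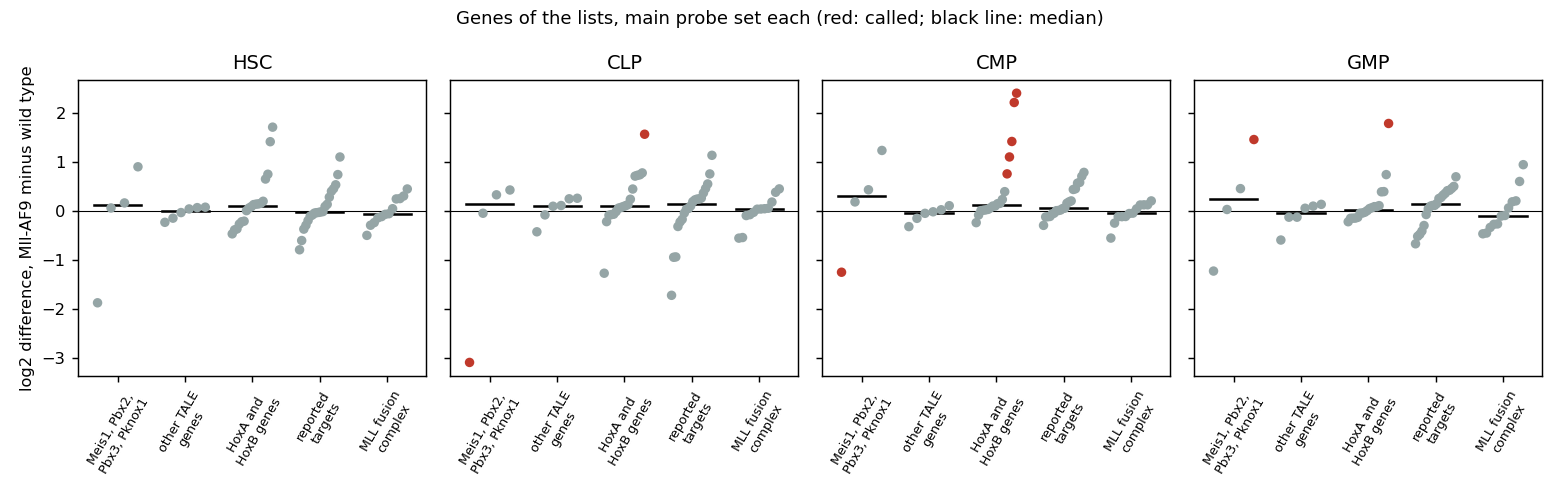
Log2 difference between Mll-AF9 and wild type (y axis) of the main probe set of each gene, by gene list (x axis) in 4 populations, with called genes in red and the list median as a black line. In CMP 5 HoxA genes are called between 0.76 and 2.41, Meis1 lies at 1.24 uncalled, and Pbx3 at -1.25 is the only called gene below 0 in these lists.

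Some markers of other cell types were called in the same comparisons, counted here on main probe sets. Of 8 measured stem cell markers 1 was called higher in GMP and CMP, Mecom, by 3.29 and 3.92, and the mean over the list ranged from 5.00 to 5.23 in wild type GMP against 5.44 to 5.68 in Mll-AF9 GMP, and from 5.56 to 6.01 against 6.16 to 6.72 in CMP. The median of those markers was 0.08 in GMP and 0.12 in CMP. Their part in the Meis1 difference was not tested. Of 10 megakaryocyte markers 1 was called, Selp, higher by 1.72 in GMP and 1.70 in CMP, while 1 of 10 was positive in GMP and 6 of 10 in CMP, with medians of -0.49 and 0.05. Of 10 monocyte and macrophage markers Mpeg1 was called higher by 0.96 in GMP, where the median was 0.18, and Csf1r lower by 1.25 in CMP, where 4 of 10 were positive and the median was -0.14. Neutrophil markers had 0 of 10 called by limma in both, with medians of -0.39 in GMP and -0.85 in CMP, where 1 of 10 was positive and the lowest differed by -2.47. Of 9 T and NK cell markers 1 was called in CMP, Gzmb, higher by 1.03.

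In CLP, where Pbx3 was also called, some lymphoid markers differed. Of 9 measured B lineage markers 2 were called lower, Vpreb1 by 3.55 and Blnk by 2.77, 2 secondary probe sets of Ebf1 were called at -3.58 and -2.42, and the list mean ranged from 4.77 to 6.61 in wild type against 4.29 to 4.91 in Mll-AF9. Of 9 T and NK cell markers 3 were called higher, Gzma by 3.46, Bcl11b by 2.91 and Themis by 2.19, with list means of 4.39 to 5.94 against 5.25 to 6.70. Mecom and Selp were called higher there too, by 1.63 and 1.62. Neutrophil markers had 0 of 10 called by limma and a median of 1.34, with list means of 5.70 to 10.60 against 7.51 to 11.37. The contrast between 3' and 5' control probe sets, a sign of RNA quality, averaged 3.69 ± 0.21 (SD, n = 8) in wild type and 4.18 ± 0.53 (SD, n = 7) in Mll-AF9 CLP, and with it as a covariate Pbx3 differed by -3.15 (limma adjusted p = 0.0183). Il7r also varied among wild type CLP replicates, from 7.16 to 10.94. Among Mll-AF9 CLP replicates Il7r read 10.17 to 10.91 in replicates 1 to 4 and 7.70 to 8.50 in replicates 5 to 7. Pbx3 read 3.51, 5.08, 2.09 and 5.09 in the former and 3.30, 3.61 and 4.24 in the latter. Replicates of both kinds lay below every wild type CLP value, and the part of the marker shifts in the Pbx3 difference was not tested.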

How the data were processed

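RNA of sorted bone marrow populations was amplified in 2 cycles and hybridised to 1 array per sample, per the labels' protocols. The deposited values are linear intensities, 1 for each probe set of an array, made with RMA per the submitters' processing notes; its version and a genome build are not given in the sources used. Log2 was taken first. CMP intensities carry up to 9 decimals, other populations 2, which leaves separate processing of CMP possible, so genotypes were compared within a population. Groups follow the sample titles, and log2 values of repeat CMP runs were averaged per replicate. Of 45101 probe sets, 64 controls and 10092 with several genes or none were left out. Symbols of 34741 probe sets were updated through the GRCm38.p6 gene table, used for names only.

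Tests used limma 3.58.1 in R 4.3.3 (lmFit, eBayes with an intensity trend), adjusted over 34945 probe sets and tested on simulated data. Levels and differences of effects came from 1 model of 8 group means. The background level is the 95th percentile of the mean levels of 129 probe sets of keratin-associated proteins and of taste, vomeronasal and olfactory receptors. Intervals are 95% confidence intervals. The number of arrays limits the precision.

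All probe sets of the 4 genes are described. The rule also named the 5 genes most like each main probe set and up to 4 called members per list and comparison; the fifth called HoxA gene, the uncalled genes, secondary probe sets of Meis2, Hoxa3, Hoxa5 and Ebf1, Kmt2a and the label markers were named after their values were seen. Members and lists were chosen with earlier results of these data known. Alternatives changed the probe sets tested, scaling, background floor, variance trend, covariates, block, model and CMP runs, and left out each replicate; the comparison with wild type replicates low in Y-linked genes and the contrasts between Mll-AF9 and earlier wild type populations were chosen after seeing the data.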

Additional observations from a re-analysis of the deposited data

Results flagged for a closer look

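Of 88 groups of values checked, 7 held a replicate that stood far from the rest of its group for the group's range, and chance alone marks about 1 in 20 such groups. In Mll-AF9 GMP, Meis1 on 1443260_at read 7.02 in replicate 3, against 6.52 for the nearest replicate. Pbx2 on 1418893_at read 6.47 in Mll-AF9 GMP replicate 4, against 5.83 for the nearest. Pbx2 on 1449261_at read 4.17 in wild type GMP replicate 1, against 4.82. Pbx3 on 1421193_a_at read 4.30 in Mll-AF9 GMP replicate 1, against 4.41, a gap that is small because the group is tight. Pknox1 on 1437470_at read 6.06 in wild type CLP replicate 7, against 7.01. Pknox1 on 1450172_at read 3.33 in Mll-AF9 HSC replicate 2, against 4.73, and on 1421233_at 3.64 in Mll-AF9 GMP replicate 3, against 3.18, below background throughout. Of the 88, 4 of the 7 lie in Mll-AF9 GMP, a group of 4 replicates.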

How the results depend on the processing

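No called value changed direction under any setting, while 39 of 869 uncalled values changed sign. The number of the 11 probe sets called was 0 in HSC, 1 in CLP, 2 in CMP and 2 in GMP, and the other settings left HSC at 0 and the 6 tests of differences of the genotype effect at 0. With values floored at background the count was 1 in GMP and 1 in CMP, as it was with the Y-linked covariate, which gave 0 in CLP. In 1 model of all groups it was 0 in GMP, 0 in CMP and 2 in CLP, with Meis1 on 1450992_a_at in GMP at an adjusted p of 0.0646. With the second CMP run alone it was 1, and with only wild type replicates low in Y-linked genes 1 in CMP and 0 in CLP. Leaving out 1 replicate gave 0 in HSC, 1 in CLP, 1 to 3 in CMP and 1 to 3 in GMP. Calls between wild type populations numbered 18 over 6 pairs and 15 to 19 when a replicate was left out, and between Mll-AF9 populations 15, and 14 to 17. With the 3' minus 5' covariate the calls between Mll-AF9 populations numbered 13. The cause of these shifts was not tested.

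With the replicate number as a block the count was 0 in GMP, where Meis1 on 1450992_a_at differed by 1.43 (limma adjusted p = 0.0541), 1 in CMP and 1 in CLP. Correlations of the deviations of same-numbered replicates ran from -0.32 to 0.01 in HSC, -0.28 to 0.17 in CLP, -0.06 to 0.20 in CMP and -0.20 to 0.09 in GMP. Differently numbered replicates were not set beside them, so these values do not decide whether the numbers pair the samples.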
